A study of Rattus norvegicus with 20 samples.

Results

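Egr1, Egr2, Egr3, Fos, Jun and Ptgs2 were chosen by name as the activity-regulated genes of a probe panel. All 6 were on it, among 750 endogenous genes. They were measured in the brains of 10 female rats of unstated age after a controlled cortical impact, a contusion made by a piston on the exposed cortex. Each animal gave 1 library from the ipsilateral hemisphere, which holds the injury, and 1 from the contralateral hemisphere, so 10 ipsilateral and 10 contralateral libraries form 10 pairs. All 10 animals were injured, and no uninjured animal was analysed here. Words such as lower, fell, rose and lost are thus relative to the contralateral hemisphere of the same injured brain. Some animals received L-myc immortalized human neural stem cells through the nose and the rest vehicle. Which animal had which treatment is not labelled, so treated and vehicle animals are mixed in both groups. The labels give neither strain nor the time between injury and dissection.

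Egr1, Egr2 and Egr3 are zinc finger transcription factors, and Fos and Jun are leucine zipper proteins that pair to form the transcription factor AP-1. Synaptic activity, growth factors and stress reach these genes through calcium and kinase signals that act on factors already bound to their promoters, so transcription starts within minutes and needs no new protein. In the brain they serve as markers of recently active neurons. Ptgs2 encodes cyclooxygenase-2, which makes the precursor of prostaglandins. It is an immediate early gene of excitatory neurons and is also induced in inflamed tissue.

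The promoter regions below show which of these response elements lie close to the start sites. Sequences come from RefSeq (build GRCr8), which held an entry for 3 of the 6 genes, each with 250 bases before and 50 after the start, written 5′ to 3′ on the gene's strand. Egr1 lies at chr18:26736828-26737127 (plus strand), Egr2 at chr20:21054392-21054691 (minus strand) and Ptgs2 at chr13:64713813-64714112 (plus strand). Capitals mark matches, on either strand, to the CArG box of serum response factor, to TGACG, which reads CGTCA from the other strand and is the core of the cAMP response element, and to the E-box CACGTG.
Egr1: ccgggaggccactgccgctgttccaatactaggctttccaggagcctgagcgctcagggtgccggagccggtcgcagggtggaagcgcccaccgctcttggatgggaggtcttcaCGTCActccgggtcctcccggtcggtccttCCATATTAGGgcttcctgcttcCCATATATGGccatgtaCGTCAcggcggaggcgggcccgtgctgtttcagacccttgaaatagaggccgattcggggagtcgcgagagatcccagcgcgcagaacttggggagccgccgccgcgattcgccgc
Egr2: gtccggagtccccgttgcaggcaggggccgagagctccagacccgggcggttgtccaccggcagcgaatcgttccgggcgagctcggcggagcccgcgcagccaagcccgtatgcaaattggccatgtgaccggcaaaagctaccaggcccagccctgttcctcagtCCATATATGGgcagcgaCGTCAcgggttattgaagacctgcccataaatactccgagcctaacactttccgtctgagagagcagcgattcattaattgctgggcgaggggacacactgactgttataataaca
Ptgs2: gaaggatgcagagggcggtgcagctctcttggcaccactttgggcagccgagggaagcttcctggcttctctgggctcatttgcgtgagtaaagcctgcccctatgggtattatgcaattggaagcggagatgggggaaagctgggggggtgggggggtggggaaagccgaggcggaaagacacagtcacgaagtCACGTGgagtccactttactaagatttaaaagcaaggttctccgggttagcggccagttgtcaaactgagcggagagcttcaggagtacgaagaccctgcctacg
Egr1 held 2 CArG boxes, beginning 105 and 83 bases before the start, and Egr2 held 1, also 83 bases before it. Both carried CGTCA 66 bases before the start, and Egr1 had a further copy 135 bases before it. Of 33469 promoters of the same length 1.64% held a CArG box and 21.2% TGACG. The Ptgs2 window had its E-box 55 bases before the start, and 6.42% of promoters held that motif. The full element TGACGTCA (1.83% of promoters) and the AP-1 motif, TGA and TCA with any base between them (7.33%), had no match in these 3 windows. These matches describe letters and do not show binding.

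Probe counts were handled as raw counts. Totals over 770 probes ranged from 38015 to 150613 in ipsilateral and from 34454 to 319964 in contralateral libraries. A scaled count is the raw count divided by a library factor from 17 housekeeping genes, and the test covered 193 genes whose raw counts averaged 20 or more, all 6 members among them. The panel's names follow mouse nomenclature and 0 of its 770 accessions matched a rat RefSeq transcript, so how well each probe binds rat RNA is not known and levels were not compared between genes. By the column headers the ipsilateral libraries belong to one run set and the contralateral libraries to another, and geometric means of the positive controls did not overlap (544 to 715 counts against 342 to 540), so run set and hemisphere cannot be told apart. In tissue samples fewer cells of a type and less RNA per cell cannot be told apart either.

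Of the 6 members 3 fell on the injured side, 1 rose and 2 did not pass the test. Egr1, Egr3 and Ptgs2 were lower, Jun was higher by a small amount, and Fos and Egr2 were not called. The test was edgeR's quasi-likelihood test with the animal as a block, called at a Benjamini-Hochberg adjusted p under 0.05 over the 193 genes. In the same fit 20 genes (10.4%) were lower and 91 (47.2%) higher, and 57.5% were called in either direction. The median tested gene had a log2 fold change of 0.30, and Egr1, Egr3 and Ptgs2 ranked 1, 5 and 6 from the lowest of the 193.

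**Figure D1:**
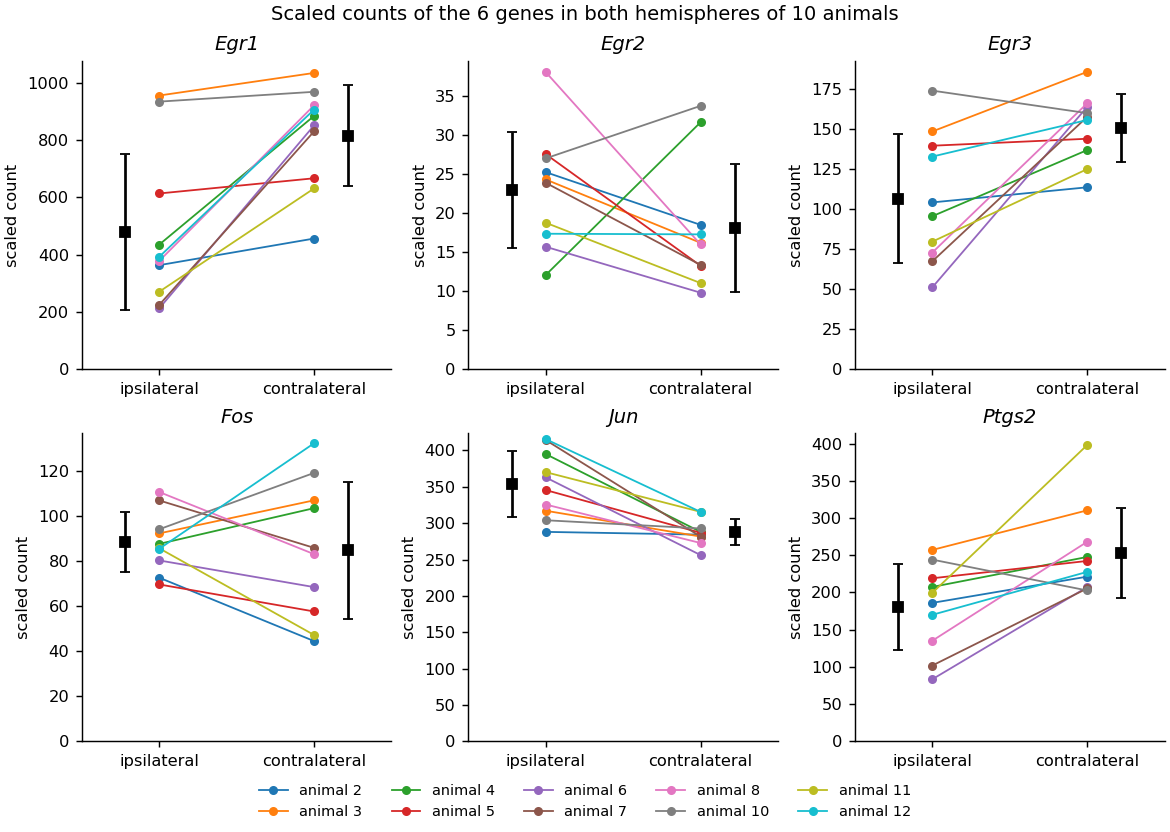
Scaled counts (vertical axes, starting at 0) of the 6 genes in the ipsilateral and contralateral library of each animal. A line joins the libraries of 1 animal, and black squares with bars are means ± SD (n = 10). All lines of Egr1 are lower on the ipsilateral side and all lines of Jun are higher there, whereas those of Fos and Egr2 cross.

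Egr1, a transcription factor that follows neuronal firing, had a lowest, median and highest scaled count of 212, 385 and 955 in ipsilateral libraries, against 456, 867 and 1034 in contralateral libraries. The groups overlapped, but 7 of 10 ipsilateral values lay under the lowest contralateral one. The means were 477 ± 272 and 815 ± 177 scaled counts (ipsilateral and contralateral, SD, n = 10 each), a log2 fold change of -0.92 ± 0.21 (SE, edgeR adjusted p = 0.0033). Egr1 was lower in 10 of 10 animals, which held for 1 of the 193 tested genes (0.518%), Egr1 itself. With all 20 housekeeping genes as the scale it was lower in 9 of 10.

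The size of the Egr1 difference was uneven. Ipsilateral Egr1 stood at 24.9% of the contralateral value in animal 6 and 27.0% in animal 7. It stood between 41.0% and 49.2% in animals 4, 8, 11 and 12. In animal 2 it was 79.6%, and in animals 3, 5 and 10 it was 92.4%, 92.0% and 96.5%. No animal lay between -1.02 and -0.33 on the log2 scale, a gap that took up 35.6% of the whole range and left 6 animals on one side and 4 on the other. The spread of Egr1 was accordingly wider ipsilaterally, with a coefficient of variation of 56.9%, against 21.7% contralaterally.

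Egr3, a relative of Egr1 that is likewise induced by synaptic activity, had 51.0, 99.8 and 174 scaled counts (lowest, median, highest) ipsilaterally and 114, 157 and 186 contralaterally. It was lower in 9 of 10 animals, a share that 11 of the 193 genes reached (5.7%), and 6 ipsilateral libraries lay under the contralateral range. The log2 fold change was -0.57 ± 0.17 (SE, edgeR adjusted p = 0.0136). Animal 6 again stood lowest, at 31.1% of its contralateral value, followed by animals 7 and 8 at 42.7% and 43.8%. Animal 10 was the exception, at 109%.

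Ptgs2, the inducible cyclooxygenase, had 83.4, 193 and 257 scaled counts ipsilaterally and 203, 235 and 398 contralaterally. It too was lower in 9 of 10 animals, with 6 ipsilateral libraries under the contralateral range and a log2 fold change of -0.53 ± 0.15 (SE, edgeR adjusted p = 0.00918). Ipsilateral Ptgs2 was between 40.3% and 50.4% of the contralateral value in animals 6, 7, 8 and 11. It was between 74.7% and 90.4% in animals 2, 3, 4, 5 and 12, and in animal 10 it was 120%. The same animal was thus the exception for Egr3 and Ptgs2, and had the smallest loss of Egr1.

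Jun, the AP-1 subunit that many cell types induce under stress, had 288, 354 and 416 scaled counts ipsilaterally and 256, 286 and 316 contralaterally. It was higher in 10 of 10 animals, as were 14 of the 193 genes (7.25%), and 8 ipsilateral libraries lay above the highest contralateral one. The difference was small, with a log2 fold change of 0.29 ± 0.07 (SE, edgeR adjusted p = 0.00597), and it nearly equalled the 0.30 of the median tested gene. The tally depended on the scaling: Jun was lower in 6 of 10 animals with TMM and with DESeq2's size factors and in 8 of 10 with median centring, and its call was lost under 4 of 6 scalings. Animal 7 showed the largest rise (147% of the contralateral value) and animals 2 and 10 the smallest (101% and 104%). Jun was also the steadiest member, with a coefficient of variation of 12.8% ipsilaterally and 6.23% contralaterally.

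Fos, the partner of Jun in AP-1, had 69.8, 86.8 and 111 scaled counts ipsilaterally and 44.6, 84.6 and 133 contralaterally. The ipsilateral values lay inside the contralateral range. Its log2 fold change was 0.14 ± 0.15 (SE, edgeR adjusted p = 0.445), with 6 animals higher and 4 lower, from 182% of the contralateral value in animal 11 to 64.6% in animal 12. Its coefficient of variation was 14.9% ipsilaterally and 35.8% contralaterally, the reverse order to Egr1. This difference in spread was not tested.

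Egr2, an Egr factor that in the nervous system also directs myelination by Schwann cells, lay near the negative controls. Its raw counts were 7 to 57, and in 18 of 20 libraries they exceeded the highest of the 8 negative control probes. The exceptions were ipsilateral animal 12 (14 counts, with a negative control at 14) and contralateral animal 6 (7 counts, with a negative control at 10). Scaled counts were 12.1, 24.1 and 38.1 ipsilaterally and 9.80, 16.1 and 33.8 contralaterally. The log2 fold change was 0.41 ± 0.23 (SE, edgeR adjusted p = 0.146), with 8 animals higher and 2 lower. Without animal 4, where ipsilateral Egr2 was 38.1% of the contralateral value, the log2 fold change was 0.59 and passed the test (edgeR adjusted p = 0.0219). It was the 1 fit of 10 leaving out an animal in which Egr2 passed, and adjusted p reached 0.282 in the others.

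**Figure D2:**
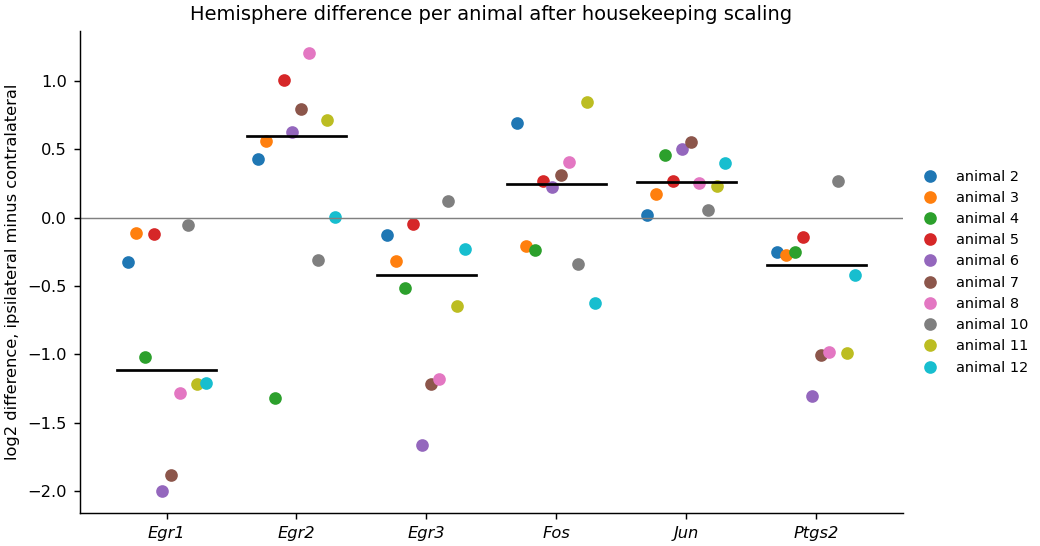
Difference between hemispheres in log2(scaled count + 1), ipsilateral minus contralateral, for each gene and animal. Colours mark animals and black bars are medians. Egr1 splits into 4 animals at -0.33 or above and 6 at -1.02 or below, and animal 6 is lowest for Egr1, Egr3 and Ptgs2.

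The direction of the decreases did not depend on how libraries were scaled, whereas that of Jun, Fos and Egr2 did. Egr1 ranged from -0.85 (housekeeping genes without Gusb) to -1.37 (each library centred on its median) on the log2 scale over 6 scalings. Egr3 ranged from -0.50 to -1.01 and Ptgs2 from -0.47 to -0.98, and each of these 3 genes was called lower under all 6. TMM scaling called 24.4% of tested genes lower and median centring 36.8%, so the background of such calls also grew. Jun was called with the 17 housekeeping genes and without Gusb. It was 0.18 with all 20 housekeeping genes (edgeR adjusted p = 0.119), 0.01 after TMM scaling, -0.02 in DESeq2's own scaling and -0.16 after median centring. Fos was negative under the last 3 of these, and Egr2 under median centring alone.

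**Figure D3:**
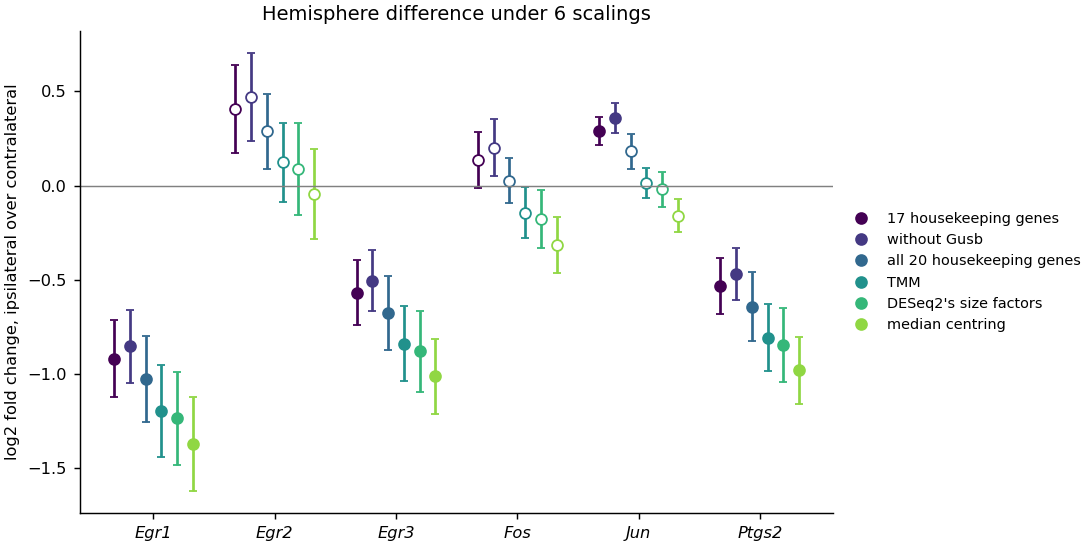
Log2 fold change (ipsilateral over contralateral, ± SE) of the 6 genes under 6 ways of scaling the libraries. Filled points have an adjusted p under 0.05 and open points do not. Egr1, Egr3 and Ptgs2 stay below 0 and filled throughout, whereas Jun, Fos and Egr2 lie above or below 0 depending on the scaling.

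Ratios of 2 members counted in the same library need no scaling. They show that members changed by different amounts, and not which of them stayed constant. The ratio of Egr1 to Jun had a lowest, median and highest value of 0.541, 1.13 and 3.07 ipsilaterally and 1.60, 3.01 and 3.67 contralaterally. It was lower ipsilaterally in 10 of 10 animals, with a median log2 difference of -1.47. The ratio of Egr3 to Jun was lower in 9 of 10 animals (median log2 difference -0.75), and that of Jun to Ptgs2 was higher in 9 of 10 (0.77). Egr1 over Fos was lower in 8 of 10 animals (-0.91), with animals 3 and 10 the exceptions. Within the decreasing genes, Egr1 over Egr3 was lower in 9 of 10 animals (-0.26) and Egr1 over Ptgs2 in 8 of 10 (-0.31). Egr1 thus stood further below its contralateral level than either in most animals. After background subtraction Egr1 over Egr3 was lower in 8 of 10. Egr3 over Ptgs2 was split, lower in 6 and higher in 4 (-0.10). None of the 15 ratios was given a test, since the members were chosen together.

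**Figure D4:**
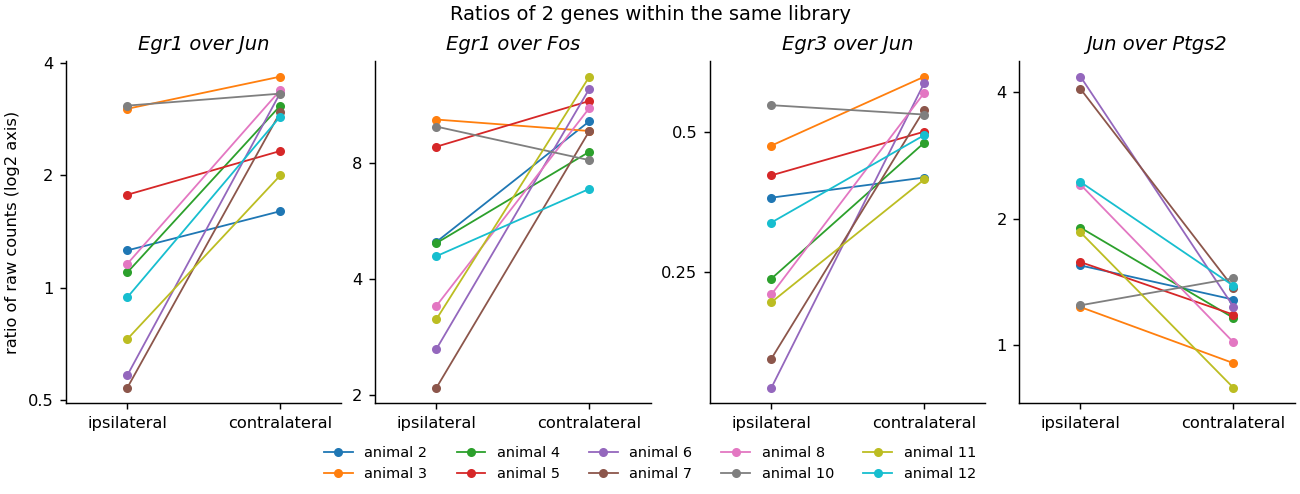
Ratios of the raw counts of 2 genes within a library (log2 axes), for the ipsilateral and contralateral library of each animal. Egr1 over Jun falls below its contralateral value in all 10 animals, and Jun over Ptgs2 lies above it in 9 of 10.

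Markers of cell types were read beside these decreases. Of the 5 neuronal markers on the panel, all tested, 3 were lower and 0 higher, namely the neurofilament Nefl (log2 fold change -0.31), Cyfip2 (-0.59) and Mpped1 (-0.63). Thy1 (-0.44) and the adhesion molecule Ncam1 (0.05) did not pass. None was at 0 in any library, and the median of these markers was -0.44, against 0.30 for all tested genes. Their summed scaled count was 2834 to 5207 ipsilaterally and 4221 to 5467 contralaterally, and it was lower ipsilaterally in 8 animals. The Cyfip2 probe gave the largest part of this sum, with means of 1927 scaled counts ipsilaterally and 2766 contralaterally, so the sum mostly follows that gene. Animals 6, 8 and 7 had the lowest shares, with 54.4%, 55.1% and 63.4% of the contralateral sum, and animals 5 and 10 had 105% and 110%. Mpped1 and Cyfip2 entered this list with their decrease already known.

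When libraries were scaled to the 5 neuronal markers in place of the housekeeping genes, Egr1 was still lower, at -0.54 ± 0.14 (SE, edgeR adjusted p = 0.00488). It was lower in 9 of 10 animals. Egr3 was then -0.19 ± 0.12 (edgeR adjusted p = 0.150) and Ptgs2 -0.15 ± 0.11 (0.207), and neither passed. This scale holds Mpped1 and Cyfip2, listed with their decrease already known. Smaller decreases on it were thus built in, and what the lost calls mean for neuronal content was not tested. With Nefl, Thy1 and Ncam1 alone as the scale, all 3 passed, at -0.69 for Egr1, -0.34 for Egr3 (edgeR adjusted p = 0.0374) and -0.30 for Ptgs2 (0.0440). Egr1 was lower there in 10 of 10 animals, and Egr3 and Ptgs2 in 7 of 10 each. Of the 193 genes 131 were called higher on this scale and 6 lower. Nefl was itself called lower with housekeeping scaling, so smaller decreases were partly built into this scale too. On the scale of the 5 markers Jun was 0.68 ± 0.15 (SE, edgeR adjusted p = 0.00328), and Fos (0.53, 0.0387) and Egr2 (0.79, 0.0281) passed as higher. However, 145 of the 193 genes were called higher there and 2 lower. The median tested gene stood at 0.69, so Jun lay at that median and Fos under it. These scales were added after the data were seen.

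The tested microglial and macrophage markers moved the other way. Of 10 such markers on the panel 4 were tested and all 4 were higher (Cd68, Ptprc, Fcer1g and Lyz2), as were 47.2% of all tested genes. Of those not tested, Itgam, Cx3cr1 and C1qb averaged 2.10, 3.45 and 2.90 raw counts, beside 3 to 7.25 for the mean of the negative controls in a library. Csf1r and C1qa averaged 5.20 and 5.50 raw counts and were higher in 9 and 7 of 10 animals. Trem2, at 13.5 raw counts, was higher in 5 animals and lower in 5. The summed scaled count was 262 to 1715 ipsilaterally and 222 to 321 contralaterally. In animals 6, 7 and 8 it was 625%, 609% and 626% of the contralateral sum, against 85.5%, 139% and 114% in animals 3, 5 and 10. The Lyz2 probe gave the largest part of this sum, with means of 516 scaled counts ipsilaterally and 130 contralaterally. Fcer1g came next, with 227 and 77.8, so the sum mostly follows these genes. Of 7 endothelial markers on the panel 4 were tested and all 4 were higher (Cdh5, Tek, Tie1 and Abcb1a), again beside 47.2% of all tested genes. With TMM Tek (0.09) and Abcb1a (0.31) lost the call, and with median centring Tek (-0.08), Tie1 (0.19) and Abcb1a (0.13) did. Pecam1, Kdr and Vwf averaged 14.7, 2.60 and 2.95 raw counts and were not tested. Pecam1 was higher in 6 animals and lower in 4. Also higher were the fibroblast collagens Col1a1 and Col3a1 and Vim, a filament gene and the 1 tested gene of the astrocyte list. The other astrocyte gene on the panel, S100b, averaged 2.40 raw counts and was not tested, and 0 oligodendrocyte markers were on the panel. Of the neutrophil, B cell and T and NK cell markers only Cd3e was tested (-0.38), and it was not called. The part of these marker lists in the result was not tested.

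By animal, the hemisphere difference of Egr1 was most like those of Egr3, Ptgs2 and Cyfip2 among 192 other tested genes, by Pearson's r over the 10 animals with housekeeping scaling. With TMM scaling these ranked 5, 4 and 7. Because Egr1 split the animals into 6 and 4, that r serves as a rank and is not printed. Within the 6 animals with the larger loss, r was 0.83 for Egr1 and Egr3 (rho 0.94) and 0.48 without animals 6 and 7. It was 0.77 for Egr1 and Ptgs2 (rho 0.94) and 0.81 without the same animals. Egr3 was most like the kinase Map3k5, then Ptgs2 and Cyfip2, and Ptgs2 was most like Egr3, Map3k5 and the protein kinase C isoform Prkce. Within the 6 animals Egr3 and Map3k5 had r = 0.91 (rho 0.94), and 0.95 without animals 6 and 12. Ptgs2 and Prkce had r = 0.95 there (rho 0.83), and 0.42 without animals 4 and 12. For Cyfip2, r was 0.69 with Egr1 (rho 0.77), and 0.73 without animals 6 and 7. With Egr3 it was 0.86 (rho 0.66), and 0.97 without animals 6 and 12. These values describe pairs picked for their likeness in animals picked by Egr1, so they carry no test.

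Over all 10 animals 60 of 192 genes passed a permutation test of r with Egr1 (adjusted p under 0.05, housekeeping scaling), 49 of them negative, and 35 passed with Egr3 and 35 with Ptgs2. The split of Egr1 into 6 and 4 animals enters this r. A gene that differs between those sets can pass without following Egr1 within either. Jun was among the 49, with r = -0.61 to Egr1 within the 6 animals, and 0.12 there under TMM scaling. Without animals 6 and 7 the sign turned, to r = 0.81. Over all 10 animals r of Egr1 and Jun was -0.02 under TMM scaling. For Fos, Jun and Egr2 themselves 0 of 192 genes passed the same test, each adjusted over that gene's own 192 relations. Fos was most like Bcl2, Nfatc3 and Tek, with r of 0.70, 0.68 and 0.65 (rho 0.68, 0.70 and 0.61; permutation p adjusted 0.729 for each r), and 0.78, 0.57 and 0.46 without animals 11 and 12. Jun was most like Lamp2, Cd37 and Fcer1g (r of 0.80, 0.80 and 0.74; rho 0.68, 0.82 and 0.73; permutation p adjusted 0.345 for each r), and r was 0.69, 0.84 and 0.72 without animals 2 and 7. Under TMM scaling these r were 0.49, 0.35 and 0.11. Egr2 was most like Pou2f2, Atg10 and Tnfrsf1a (r of 0.80, 0.74 and 0.71; rho 0.78, 0.82 and 0.77; permutation p adjusted 0.862 for each r), and without animals 4 and 10 its r were 0.48, 0.49 and 0.70. Fos and Jun, the partners in AP-1, had r = -0.17 over the 10 animals (rho = -0.19, permutation p = 0.638 and 0.607), and r = -0.01 without animals 11 and 12.

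Further genes of the same signalling were read from lists chosen with earlier results of these data known. Of 37 other activity-regulated genes listed, 2 were on the panel. Dusp6, a phosphatase that extracellular signal-regulated kinase induces and that in turn dephosphorylates it, averaged 96.4 ± 32.4 scaled counts in ipsilateral and 125 ± 20.8 in contralateral libraries (SD). It was lower, with a log2 fold change of -0.40 ± 0.13 (SE, edgeR adjusted p = 0.0202, 8 of 10 animals), and was called lower with TMM (-0.68) and median centring (-0.85) as well. The growth regulator Myc was higher at 0.58 ± 0.21 (SE, edgeR adjusted p = 0.0316), a call lost with TMM (0.31) and median centring (0.13). Of 14 listed AP-1 partners 3 were on the panel. Atf2, a constitutive partner of Jun, was lower (log2 fold change -0.23 ± 0.09 SE, edgeR adjusted p = 0.0378, 8 of 10 animals) and Maf was higher (0.74 ± 0.16 SE, 0.00294, 9 of 10 animals), a call lost with median centring (0.28), while Batf averaged 4.45 raw counts and was not tested.

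Of the kinases and cofactors that carry signals to these promoters, 20 were set out here and 15 of them were tested, of which 2 fell and 5 rose, beside 10.4% lower and 47.2% higher over all tested genes. Their median log2 fold change was 0.03, against 0.30 for all tested genes. Lower were Map2k4, which activates the Jun kinases (-0.84 ± 0.15 SE, edgeR adjusted p = 0.00116), and Map3k5 (-0.32 ± 0.10, 0.0127). Each was lower in 9 of 10 animals. Higher were Mapk3, an extracellular signal-regulated kinase (0.61 ± 0.18), Map3k1 (0.54 ± 0.19), Nfatc1 (0.88 ± 0.21) and Nfatc3 (0.55 ± 0.16), both calcium-regulated factors, and the acetyltransferase Ep300 (0.22 ± 0.08). Of these 5, Nfatc1 kept its call with TMM (0.60) and median centring (0.43), and Ep300 was called lower with median centring (-0.23). Of the genes not called, the probes of Crebbp, a partner of the factor that binds the cAMP response element, and of Mapk14 had the most counts, which does not rank their transcripts. Their log2 fold changes were -0.01 ± 0.07 for Crebbp and 0.03 ± 0.07 for Mapk14 (SE, edgeR adjusted p = 0.918 and 0.731). That factor itself, Creb1, stood at -0.01 ± 0.15. Both Crebbp and Mapk14 were called lower with TMM (-0.29 and -0.25). No other gene of the prostaglandin list was on the panel, so Ptgs2 could not be set beside its pathway.

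**Figure D5:**
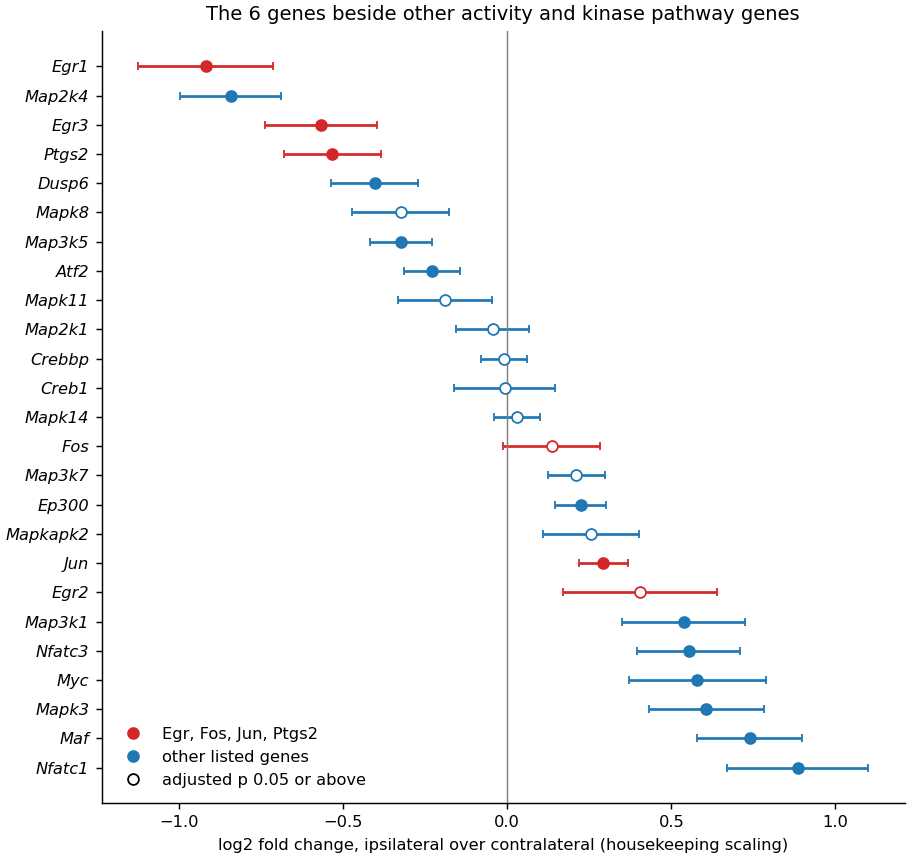
Log2 fold changes (ipsilateral over contralateral, ± SE, housekeeping scaling) of the 6 genes in red and of other tested genes of the activity, AP-1 and kinase lists in blue. Open points have an adjusted p of 0.05 or above. Egr1 and Map2k4 stand lowest, and Nfatc1 and Maf highest.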

How the data were processed

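RNA of 20 libraries was counted on the nCounter, which counts barcoded probes without amplification. The deposited values are whole-number counts per probe. The series design text describes normalization to controls and housekeeping genes in nSolver, but the deposited counts hold unsubtracted negative controls and unequal positive controls, and were treated as raw counts. Housekeeping rows were recognised as the separate block of 20 rows after the endogenous genes, where the design text speaks of 10. A second deposited table holds the same counts under other animal numbers in 20 of 20 columns, with all 10 pairs kept, and animal numbers here follow the first.

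Counts were divided by the geometric mean of the 17 of 20 housekeeping genes averaging at least 20 counts. Endogenous genes averaging at least 20 counts (193 of 750) were tested with edgeR 4.0.16 in R 4.3.3 (glmQLFit, glmQLFTest, two-sided). DESeq2 1.42.0 and limma 3.58.1 gave alternatives. An SE is the log2 fold change divided by the square root of F. Differences per animal use log2(scaled count + 1). The pairing rests on animal numbers in the titles, and residuals of an animal's 2 libraries correlated at -0.21 to 0.50, above 0.1 in 5 of 10. Libraries of a group differed by more than sampling noise (chi-square per degree of freedom of 2.22 or more). Correlations over 10 animals used 100000 permutations.

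An item of the kinase list is not reported here, and its counts and median leave it out. The genes named are the 6 members, the called members of each list and the 2 others with the most counts, and the 3 genes most like each member. Members and lists were chosen with earlier results of these data known. Intervals and SEs do not cover differences in tissue dissection.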

Additional observations from a re-analysis of the deposited data

How the results depend on the processing

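Egr1, Egr3 and Ptgs2 kept direction and call under every alternative run, apart from the scale of 5 neuronal markers, where Egr3 (-0.19) and Ptgs2 (-0.15) lost it. On that scale Egr2 (0.79) and Fos (0.53) passed, as did Egr2 (0.63) with Nefl, Thy1 and Ncam1. The median tested gene stood at 0.69 with the 5 markers and at 0.53 with Nefl, Thy1 and Ncam1. Of 137 alternative values of the 6 genes 123 kept their direction and side of the threshold. Jun lost its call with TMM (0.013) and all 20 housekeeping genes (0.18), and turned with DESeq2's size factors (-0.020) and median centring (-0.16). Fos turned under these and TMM (-0.14 with TMM, -0.18 with DESeq2, -0.32 with median centring), and Egr2 with median centring (-0.042). The housekeeping scale sets the libraries' levels, and the median tested gene stood at -0.15 under median centring, in place of 0.30. Leaving out an animal gave -1.02 to -0.80 for Egr1, -0.65 to -0.45 for Egr3, -0.62 to -0.45 for Ptgs2, 0.26 to 0.32 for Jun, 0.05 to 0.22 for Fos and 0.32 to 0.59 for Egr2. Without the animal block no member's call changed (Egr1 -0.77, Egr3 -0.49, Ptgs2 -0.49, Jun 0.30, Fos 0.07 and Egr2 0.39), while genes called lower numbered 13 in place of 20. Exact sign-flip permutation tests over the 10 animals gave unadjusted p = 0.00195 for Egr1 and Jun, the smallest possible, 0.00586 for Egr3, 0.00977 for Ptgs2, 0.145 for Egr2 and 0.377 for Fos. Genes called lower numbered 47 with TMM, 48 with DESeq2, 71 with median centring, 12 without Gusb, 9 with no filter on low counts and 13 after background subtraction. Genes called higher numbered 58 with TMM, 55 with DESeq2 and 40 with median centring. Leaving out an animal gave 9 to 23 lower genes, with 12 or fewer without animal 2, 6, 7, 8, 11 or 12. With TMM, r turned to 0.048 for Egr1 and Fos, 0.018 for Egr3 and Jun and 0.14 for Jun and Ptgs2. Within the 6 animals r of Jun and Ptgs2 turned to 0.018 with housekeeping scaling, and was 0.51 with TMM. Apart from the scalings named, the cause of these shifts was not tested. Egr2 counts lay near the negative controls, and how far depth limits its call was not tested.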
